A study of Homo sapiens with 6 samples.

Results

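The transcripts described here are those of 47 genes that act at the G1/S boundary of the cell cycle and in DNA replication, among them the MCM helicase, the replicative polymerases and the enzymes that make deoxynucleotides. They were chosen by name as E2F-linked genes, with earlier results of these data known. All 47 were found among the 60612 gene identifiers of the count table. All 47 also passed the filter on low counts that left 17723 genes for testing. They were measured in U251, an established human glioma line, by sequencing of polyadenylated RNA. The 3 control libraries are labelled as a normal control, and the other 3 come from the same line after transient knockdown of TEAD3, a transcription factor of the Hippo pathway that acts with YAP1 or TAZ. What the control cells received is not stated in the labels, which for the knockdown mention a plasmid as well as an siRNA. One cell line was used, and the labels do not say that replicates were separate cultures, so p-values measure only how these libraries vary, and that variation may be technical.

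Cells commit to division when cyclin-dependent kinases inactivate the retinoblastoma protein and release E2F transcription factors, which switch on the genes needed for S phase. In G1 the origin recognition complex, CDC6 and CDT1 load the MCM2 to MCM7 ring onto DNA, a step known as licensing. In S phase CDC45 and the GINS complex turn that ring into the active helicase, primase and polymerases copy the strands, and ribonucleotide reductase and thymidylate synthase supply the building blocks. In proliferating tumour lines these transcripts rise and fall together through the cycle, with their peak around the entry into S phase.

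The libraries held between 58344026 and 64808615 counts, at which 3 counts correspond to 0.0463 to 0.0514 counts per 1e6 counts (CPM), for counting error only. Levels below are CPM scaled by TMM, a normalisation that aligns libraries on the bulk of their genes. Values are listed in the order of replicates 1, 2 and 3. The targeted transcript, TEAD3, read 14.9, 20.3 and 21 CPM across the controls and 4.70, 8.35 and 6.08 CPM across the knockdown libraries. Every knockdown library lay below every control (log2 fold change -1.55 with an SE of 0.218, edgeR adjusted p = 0.0114). The TEAD3 log2 fold change was no longer called without control replicate 3, knockdown replicate 1 or knockdown replicate 3 (edgeR adjusted p of 0.0541, 0.0532 and 0.0938). Of the markers of astroglial and glioma cells, VIM, CD44, NES and SOX2 were at 114 CPM or more in every library. SLC1A3 was at no more than 7.21 CPM, CHI3L1 at no more than 4.01 CPM, GFAP, the defining astrocyte filament, at no more than 1.80 CPM and S100B at no more than 0.686 CPM. The immune marker PTPRC, the endothelial marker PECAM1 and the neuronal marker RBFOX3 were at no more than 0.122, 0.265 and 0.123 CPM, while CD68 (123 to 154 CPM) and SYT1 (15.5 to 18.6 CPM) were present. A second endothelial marker, VWF, lay between 0.578 and 1.88 CPM, and the epithelial markers EPCAM and CDH1 were at no more than 1.28 and 0.947 CPM. CDKN2A and CDKN2B, which encode inhibitors of the G1 kinases CDK4 and CDK6, were at no more than 0.266 and 0.0999 CPM.

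Nearly all of the replication genes were slightly lower after TEAD3 knockdown, and none passed the test over all genes. The fold change was below 0 for 45 of the 47, against 50.2% of all genes tested, and above 0 for GMNN and TIPIN. The median log2 fold change was -0.25, a level of 83.9% of control, where the median of all tested genes was -0.0012. In bulk RNA, fewer cycling cells and less of each transcript per cell cannot be told apart. With edgeR's quasi-likelihood test no member was called at an adjusted p under 0.05, where 0.655% of all genes were called in either direction and 0.203% lower. The smallest edgeR adjusted p among the members was 0.0719, for TYMS. At an unadjusted p under 0.05, 23 members were lower and none higher, against 7.43% and 8.15% of all genes in those directions. Some markers of astroglial and glioma cells also had groups apart, none of them called: VIM, SOX2 and GFAP were at -0.29, -0.27 and -1.34 in log2 fold change, and SLC1A3 at 0.61 (edgeR adjusted p of 0.2, 0.247, 0.143 and 0.157). Their part in the members' values was not tested. In 29 members (61.7%) each knockdown library lay below each control, which was so for 10.6% of all genes (21.6% were apart in either direction), and in the other 18 the groups overlapped. The list was chosen with earlier results of these data known. Its members also varied together over the libraries, as described below, so these counts are not made up of independent genes. The counts by role below are to be read beside the same shares of all genes. The 95% interval excluded a 2-fold decrease for 46 members, all but E2F2, and a 1.5-fold decrease for 32.

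**Figure D1:**
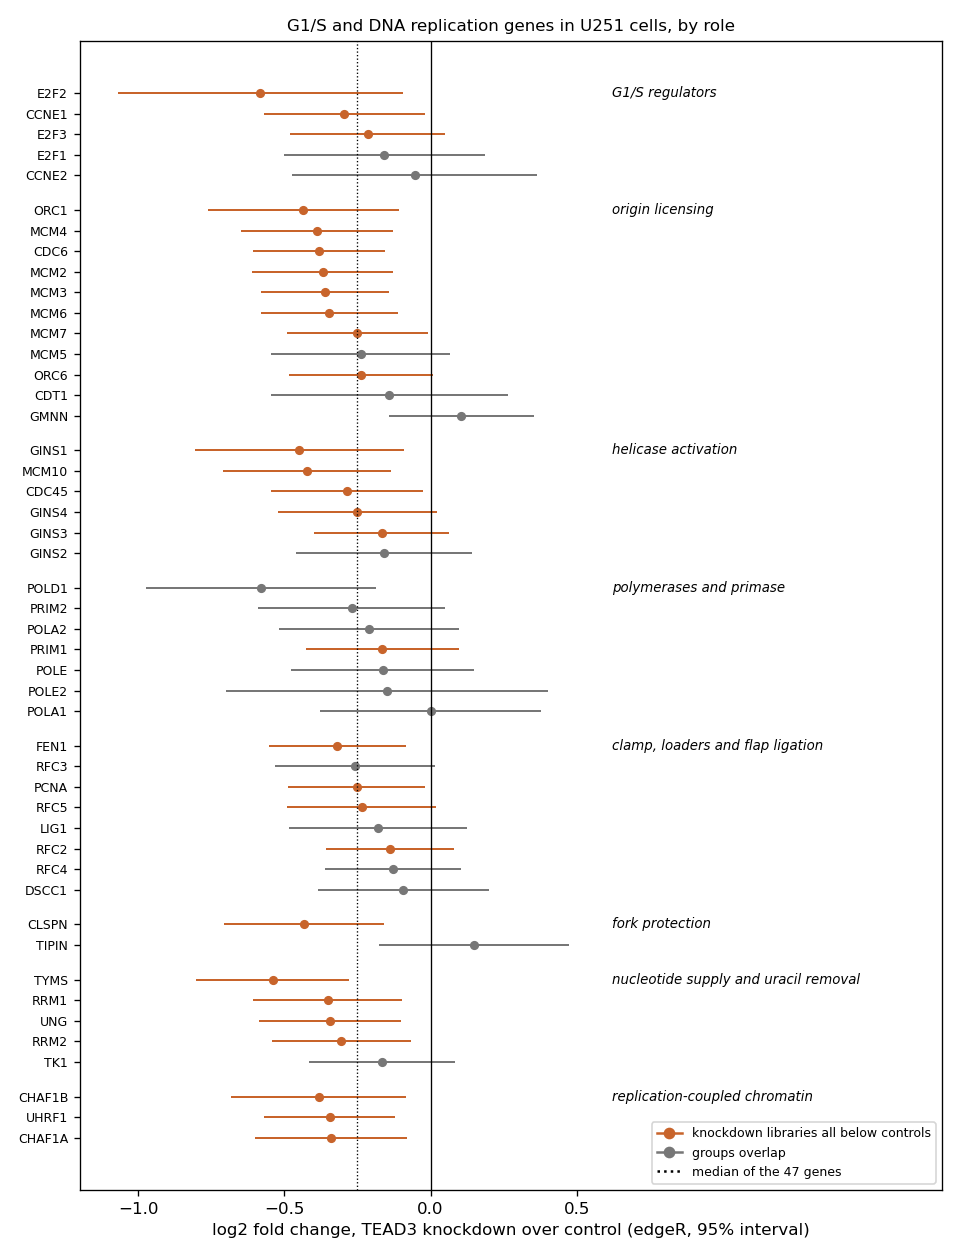
Log2 fold change of each of the 47 genes, TEAD3 knockdown over control, with the 95% interval of the edgeR fit, grouped by role; orange marks the 29 genes whose knockdown libraries all lay below the controls. All points but GMNN and TIPIN lie below 0, and most intervals lie within a 2-fold decrease.

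Whether members were called depended on the method. DESeq2 called 10 lower (2.17% of all genes were called lower), and edgeR with a correction for transcript length and GC content called 8 (1.7% of all genes). Without control replicate 2 edgeR called 4 (1.78% of all genes), and limma-voom called none (0.231%). CDC6 and TYMS were called in all 3 of the fits that made calls. Another 12 were called in 1 or 2 of them, namely MCM2, MCM3, MCM4, MCM6, MCM10, POLD1, CLSPN, UHRF1, PCNA, FEN1, UNG and RRM1. DESeq2 called no member higher (2.75% of all genes). The median over the members stayed between -0.31 and -0.22 in all 16 alternative fits.

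The 6 libraries were not equally far apart. Summed over the 47 genes, the level was 2862, 3050.2 and 2884 CPM across the controls and 2332, 2606 and 2258 CPM across the knockdown libraries. Both sums and medians placed knockdown replicate 2 nearest to the controls. The median deviation from each gene's mean over the libraries was 0.14, 0.16 and 0.12 on the log2 scale in the controls and -0.17, -0.02 and -0.21 in the knockdown libraries, where the median of all genes lay within 0.0055 of 0. Within the knockdown group, replicate 2 had the highest level for 37 of the 47 genes, replicate 1 for 5 and replicate 3 for 5. TEAD3 itself was also highest in replicate 2 of that group. The non-polyadenylated RNAs RMRP, RPPH1, RN7SK, RN7SL1 and RN7SL2 summed to 117 and 161 CPM in knockdown replicates 1 and 3, but to 36.2 CPM in knockdown replicate 2 and to 32.7, 78.5 and 36.1 CPM in the controls. Their part in the members' levels was not tested beyond a fit with their summed level as a covariate. In that fit the members' median was -0.23 and none was called (0.0395% of all genes were called lower). The targeted gene TEAD3 was not called in it either (log2 fold change -1.43, edgeR adjusted p = 0.0631).

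**Figure D2:**
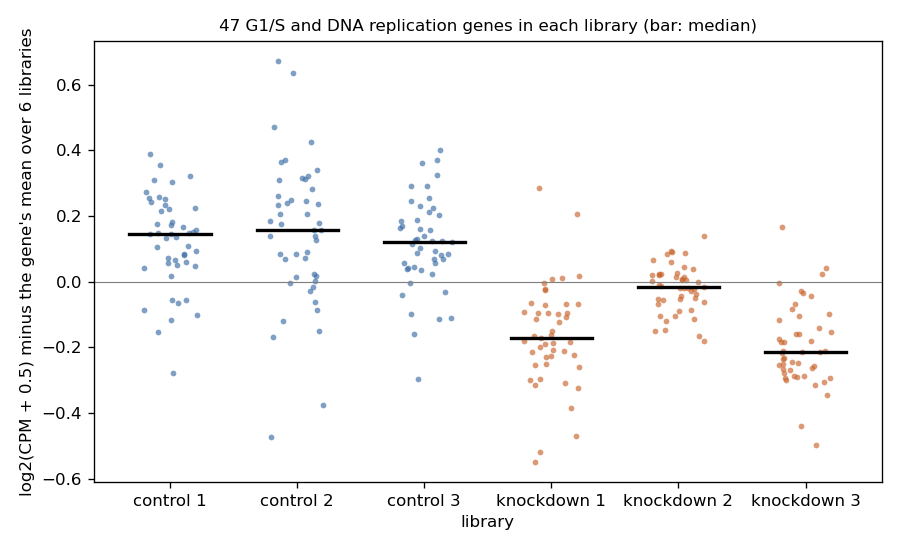
Each point is 1 of the 47 genes, plotted as log2(CPM + 0.5) minus the gene's mean over the 6 libraries, and each bar is the library's median. The medians are 0.12 to 0.16 in the controls, -0.02 in knockdown replicate 2 and -0.17 and -0.21 in the other knockdown libraries.

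The controls differed by base composition. Over expressed protein-coding genes, deviation in log2 CPM correlated with GC content at -0.55, 0.67 and -0.22 across the controls (Spearman). Across the knockdown libraries the correlations were -0.13, 0.18 and 0.015. With the length of the longest transcript they were 0.29, -0.10 and 0.25 across the controls. Across the knockdown libraries the length correlations were -0.29, -0.11 and -0.04, all negative. The part of length in the members' values was not tested beyond the length and GC correction, in which the members' median was -0.30. Control replicate 2 had the highest level of the 3 controls for 23 members. The longest transcripts of these had a median GC content of 54.6%. For 20 members it had the lowest level, with a median of 43.6%. Among the 20 members with a GC content of at least 50%, its level was above the mean of the other controls in 17 and differed by a median of 0.23 on the log2 scale. Among the other 27 it was above in 7, with a median difference of -0.15. Between knockdown and control the median log2 fold changes of these classes were -0.29 and -0.25. Against control replicates 1 and 3 alone the medians of the log2 CPM difference were -0.26 and -0.27. Both of those controls had negative correlations with GC content, so fits without control replicate 2 keep controls that lean to low GC. The 4 members called without it, CDC6, MCM10, RRM1 and TYMS, had GC contents of 45.5%, 43.3%, 43.5% and 49.8%. The part of GC content in those calls was not tested.

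**Figure D3:**
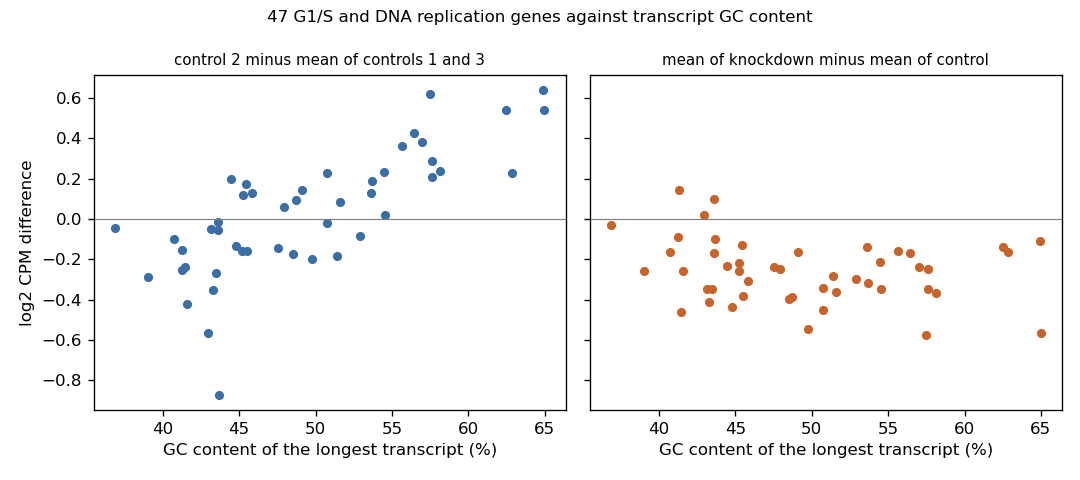
Log2 CPM differences of the 47 genes against the GC content of the longest annotated transcript, in percent. Control replicate 2 minus the mean of controls 1 and 3 (left) runs from negative at low GC to positive at high GC, while knockdown minus control (right) is below 0 for all but GMNN, TIPIN and POLA1, with medians of -0.29 at 50% GC or more and -0.25 under 50%.

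The letters of E2F sites were sought in the promoters of the members, which were listed by name as E2F-linked. Promoters were taken from RefSeq on GRCh38.p14 and were available for 42 of the 47. The words searched were TTTCCCGC, TTTGGCGC, TTTCGCGC and TTTGCCGC, on both strands, within the 250 bases before the annotated start. They occurred in 16 of the 42 promoters (38.1%), against 4.34% of the promoters of tested genes and 2.79% of all promoters. The members were chosen as E2F-linked, so this share describes the choice. Of the members with separated groups 8 of 27 held a word, and of those with overlapping groups 8 of 15, a split that was not tested. The core word of TEAD sites, GGAATG, was present in 5 of 42 (11.9%), against 9.68% of tested genes. For CCAAT the shares were 54.8% and 35.4%, and for the words TTTGAA and TTCGAA of the cell cycle homology region, which marks G2/M genes, 7.14% and 10.1%. Split in the same way, CCAAT was in 18 of 27 and 5 of 15 promoters, GGAATG in 4 of 27 and 1 of 15, and the cell cycle homology words in 3 of 27 and 0 of 15. Below are the 60-base windows around the word nearest the start for the 6 members whose window holds no annotated exon, with the words in capitals, on the strand of the gene. They are shown so that the letters of the sites can be read in members of different roles. In MCM6 a word on each strand overlaps the other, so the capitals run as one block.
MCM6, chr2:135876496-135876555, minus strand: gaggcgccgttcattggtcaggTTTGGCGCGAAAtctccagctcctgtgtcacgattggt
MCM3, chr6:52284883-52284942, minus strand: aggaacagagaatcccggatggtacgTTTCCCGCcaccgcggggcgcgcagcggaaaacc
PCNA, chr20:5126648-5126707, minus strand: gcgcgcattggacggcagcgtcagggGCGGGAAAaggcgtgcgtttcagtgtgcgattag
E2F2, chr1:23531242-23531301, minus strand: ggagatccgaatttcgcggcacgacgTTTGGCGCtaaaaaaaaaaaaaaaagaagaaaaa
E2F3, chr6:20401800-20401859, plus strand: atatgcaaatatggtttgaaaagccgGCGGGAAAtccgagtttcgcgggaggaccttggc
POLA1, chrX:24693755-24693814, plus strand: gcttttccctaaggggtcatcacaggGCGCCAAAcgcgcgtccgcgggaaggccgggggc
A match is a description of these letters and no evidence of binding in U251 cells.

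The regulators of the transition were lower in all 5 cases, with a median log2 fold change of -0.22 and none called. E2F2, an activator E2F, was the least abundant member per length. It read 9.76, 15.3 and 10.1 CPM across the controls and 6.28, 9.73 and 7.47 CPM across the knockdown libraries. The knockdown values lay below every control, although knockdown replicate 2 all but reached control replicate 1 (log2 fold change -0.58 with an SE of 0.22, edgeR adjusted p = 0.24). Without control replicate 2, its highest library, the log2 fold change of E2F2 was -0.35. CCNE1 encodes cyclin E1, the partner of CDK2 at the G1/S boundary. It was at 25.2, 22.9 and 23.4 CPM across the controls and 19.3, 21.5 and 17.4 CPM across the knockdown libraries, with the groups apart (log2 fold change -0.30 with an SE of 0.124, edgeR adjusted p = 0.285). E2F3, another activator, was at 23.2, 20.9 and 23.6 CPM and then 19.95, 20.3 and 18 CPM, again without overlap (log2 fold change -0.22 with an SE of 0.119, edgeR adjusted p = 0.42). The groups overlapped for E2F1, the most abundant of the regulators. Its controls read 32.2, 47.2 and 32.7 CPM and its knockdown libraries 29.8, 35 and 35.6 CPM, so that only control replicate 2 was clearly above the rest. Its log2 fold change was -0.16 (edgeR adjusted p = 0.686), and 0.04 without control replicate 2. CCNE2, which encodes the second cyclin E, was at -0.05 in log2 fold change (edgeR adjusted p = 0.94), which became 0.15 without control replicate 1. Leaving out control replicate 2 instead gave -0.08.

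Among the origin licensing genes 10 of 11 were lower, with a median log2 fold change of -0.35 and none called. CDC6, the ATPase that loads the MCM ring together with the origin recognition complex, stood at 69.9, 62.2 and 68.8 CPM across the controls. After knockdown it stood at 50.6, 54.5 and 49.1 CPM, below all controls (log2 fold change -0.38 with an SE of 0.101, edgeR adjusted p = 0.119). It was called by DESeq2 (adjusted p = 0.0169), after the length and GC correction (edgeR adjusted p = 0.0414) and without control replicate 2 (0.0351). ORC1, the largest subunit of the origin recognition complex, and ORC6, its smallest, had log2 fold changes of -0.44 and -0.24 with groups apart in both. CDT1, which brings the ring to the origin, overlapped between groups (17.7, 30.1 and 21.1 CPM in controls, 18.5, 23.1 and 20.9 CPM in knockdown libraries), and its log2 fold change of -0.14 became 0.10 without control replicate 2. GMNN encodes geminin, the inhibitor of CDT1, and was 1 of the 2 members above 0. It was at 39.2, 39.2 and 42.3 CPM across the controls and 48.2, 42.4 and 39.3 CPM across the knockdown libraries, with overlap (log2 fold change 0.11 with an SE of 0.111, edgeR adjusted p = 0.71), and at -0.06 with the length and GC correction.

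All 6 genes of the MCM2 to MCM7 ring were lower, with log2 fold changes between -0.39 (MCM4) and -0.24 (MCM5) and groups apart for each but MCM5. Their summed level was 796, 888 and 787 CPM across the controls and 628, 729 and 636 CPM across the knockdown libraries. MCM3 was at 129, 134 and 124 CPM across the controls and 99.2, 109 and 93.1 CPM across the knockdown libraries (log2 fold change -0.36 with an SE of 0.0981, edgeR adjusted p = 0.126). MCM2 was at 101, 121 and 104 CPM and 80.3, 92.2 and 80.6 CPM (log2 fold change -0.37 with an SE of 0.108, edgeR adjusted p = 0.147). In both, the highest knockdown library was replicate 2 and still lay below the lowest control. MCM7, the most abundant of the 6, was at 298, 356 and 285 CPM and 255, 282 and 252 CPM, where knockdown replicate 2 came close to control replicate 3 (log2 fold change -0.25 with an SE of 0.108, edgeR adjusted p = 0.3). MCM4 and MCM6 had log2 fold changes of -0.39 and -0.35 (edgeR adjusted p of 0.156 and 0.157). MCM5 overlapped because knockdown replicate 2, at 82.3 CPM, exceeded control replicates 1 and 3, at 74.3 and 79.4 CPM. Without control replicate 2 the log2 fold changes of MCM5 and MCM7 were -0.10 and -0.15. The proteins form a ring with 1 copy of each, but the transcripts were unequal per length: in controls MCM7 was at 106 ± 12.7 CPM per kilobase of its main transcript and MCM6 at 15.4 ± 0.831 (SD, n = 3 each). The other 4 lay between 23.9 ± 3.85 (MCM5) and 40.3 ± 1.56 (MCM3). Exons of MCM7 overlap AP4M1 on the opposite strand, and those of MCM2 overlap TPRA1 and AC023593.1, also on the opposite strand. How such reads were counted is not known.

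**Figure D4:**
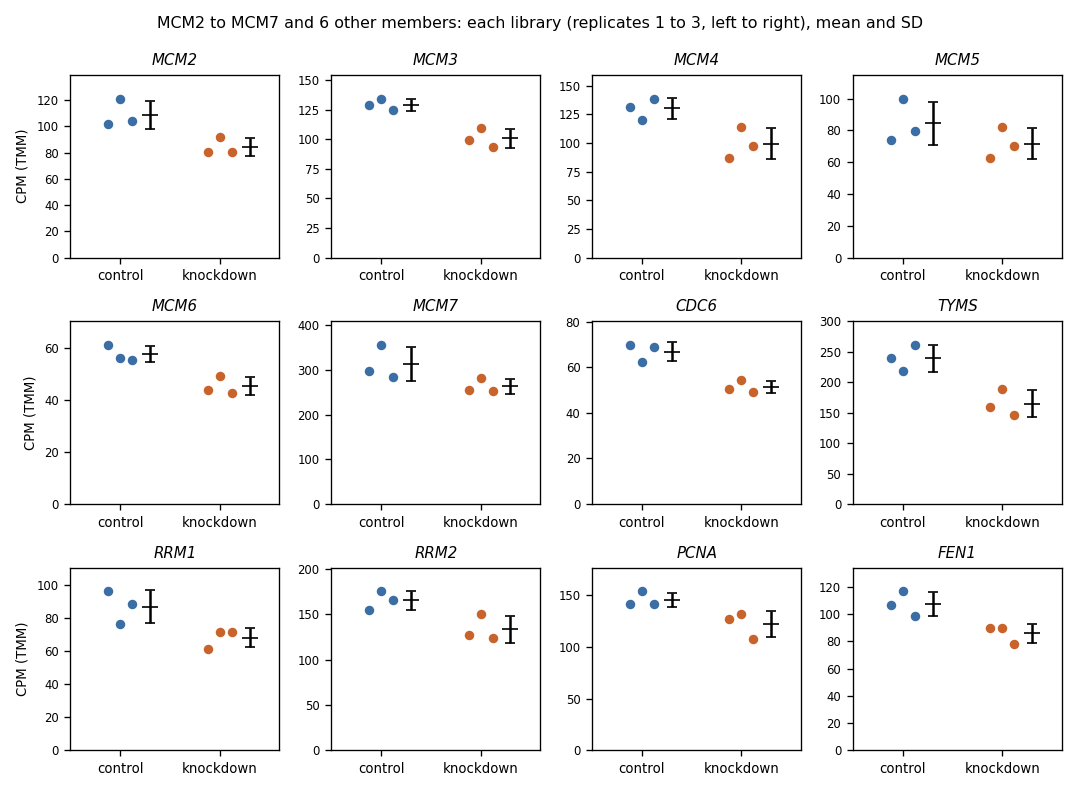
TMM-normalised CPM of MCM2 to MCM7 and 6 further members in each library (blue control, orange knockdown, replicates 1 to 3 from left to right), with mean and SD in black; every axis starts at 0. Knockdown replicate 2 is the highest knockdown library in most panels, and the groups overlap only for MCM5.

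Genes that turn the loaded ring into a working helicase were lower in 6 of 6, with a median log2 fold change of -0.27, none called and groups apart in 5. MCM10, which helps activate the helicase, was at 33.4, 24.9 and 30.2 CPM across the controls and 22.2, 22.6 and 21.2 CPM across the knockdown libraries. The knockdown libraries lay close together and below all controls (log2 fold change -0.42 with an SE of 0.129, edgeR adjusted p = 0.16). GINS1, a subunit of the GINS complex, was at 18, 15.2 and 17.8 CPM and 12.7, 14.6 and 10.1 CPM, where knockdown replicate 2 was close to control replicate 2 (log2 fold change -0.45 with an SE of 0.16, edgeR adjusted p = 0.215). CDC45, the helicase cofactor, was at 26.8, 23 and 25.5 CPM across the controls and 21, 21.3 and 19.5 CPM after knockdown, with no overlap (log2 fold change -0.29 with an SE of 0.117, edgeR adjusted p = 0.274). GINS3 was the most abundant of the role on average, at 32.9, 32.7 and 33.2 CPM and 29.6, 30.6 and 27.8 CPM, and its small difference also separated the groups (log2 fold change -0.17 with an SE of 0.104, edgeR adjusted p = 0.476). The remaining subunits GINS4 and GINS2 had log2 fold changes of -0.25 and -0.16, and only GINS2 overlapped.

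Of the polymerase and primase genes 7 of 7 were below 0, with a median log2 fold change of -0.17 and none called, and the groups were apart in PRIM1 alone. POLD1, the catalytic subunit of polymerase delta, which copies the lagging strand, was at 34.6, 56.2 and 43 CPM across the controls and 25.8, 35.5 and 28.2 CPM across the knockdown libraries. Knockdown replicate 2 lay just above control replicate 1, so the groups overlapped (log2 fold change -0.58 with an SE of 0.177, edgeR adjusted p = 0.16), and without control replicate 2 the log2 fold change of POLD1 was -0.38. PRIM2, the large primase subunit, was at 26, 20.8 and 29.8 CPM and 19.6, 21.3 and 22.5 CPM, with control replicate 2 among the knockdown values (log2 fold change -0.27 with an SE of 0.144, edgeR adjusted p = 0.402). POLA2, a subunit of polymerase alpha and the most abundant of the role, was at 42.2, 54.5 and 50.7 CPM and 39.8, 50.00 and 37.6 CPM (log2 fold change -0.21 with an SE of 0.138, edgeR adjusted p = 0.504). Its control replicate 1 lay below knockdown replicate 2, and without control replicate 2 its log2 fold change was -0.13. POLA1, the catalytic subunit of the same polymerase, showed no difference on average, at 17.2 ± 3.67 CPM across the controls and 17.2 ± 1.93 CPM after knockdown (SD, n = 3 each). Its 95% interval ran from 77.1% to 129.7% of control. POLE, which copies the leading strand, its subunit gene POLE2 and the small primase gene PRIM1 had log2 fold changes of -0.16, -0.15 and -0.17. Leaving out control replicate 2 gave -0.04 for POLE, -0.39 for POLE2 and -0.17 for POLA1.

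The sliding clamp, its loaders and the enzymes that join Okazaki fragments were lower in 8 of 8, with a median log2 fold change of -0.21, none called and groups apart in 4. FEN1, the flap endonuclease that trims Okazaki fragments, was at 106, 117 and 98.8 CPM across the controls and 89.8, 90.1 and 78.1 CPM across the knockdown libraries. All of its knockdown libraries lay below the controls (log2 fold change -0.32 with an SE of 0.105, edgeR adjusted p = 0.186). PCNA, the clamp that holds polymerases on DNA, was at 142, 154 and 142 CPM and 127, 132 and 108 CPM, with knockdown replicate 3 the lowest and no overlap (log2 fold change -0.25 with an SE of 0.105, edgeR adjusted p = 0.277). RFC3, a subunit of the clamp loader, was at 46.1, 36.9 and 44 CPM and 35.4, 38.8 and 32 CPM, and overlapped because control replicate 2 was below knockdown replicate 2 (log2 fold change -0.26 with an SE of 0.123, edgeR adjusted p = 0.345). The other loader genes, RFC5, RFC2, RFC4 and DSCC1 (of the alternative loader used in cohesion), had log2 fold changes of -0.24, -0.14, -0.13 and -0.09. LIG1, the ligase that seals the fragments, was at -0.18. Without control replicate 2 the log2 fold changes of LIG1, RFC4 and DSCC1 were -0.03, -0.07 and -0.17.

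The fork protection genes had fold changes of opposite sign, and neither was called. CLSPN, which encodes claspin, a mediator between stalled forks and the checkpoint kinase CHK1, was at 33, 29.2 and 30.9 CPM across the controls and 21.2, 26.1 and 21.7 CPM across the knockdown libraries, without overlap (log2 fold change -0.43 with an SE of 0.123, edgeR adjusted p = 0.138). TIPIN, which works with TIMELESS at the fork, was at 17, 14.3 and 14.9 CPM and 19.8, 14.8 and 16.6 CPM. Knockdown replicate 1 was the highest, and knockdown replicates 2 and 3 lay among the controls (log2 fold change 0.15 with an SE of 0.146, edgeR adjusted p = 0.686). Its sign was the same in all 16 alternative fits, but its log2 fold change was 0.03 with the length and GC correction and 0.10 without control replicate 2.

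Nucleotide supply held the member with the smallest p. All 5 genes of the role were lower, with a median log2 fold change of -0.34, none called and groups apart in 4. TYMS (ENSG00000176890, GRCh38 chromosome 18 from 657604 to 673578) encodes thymidylate synthase, the enzyme of de novo dTMP synthesis and the target of fluoropyrimidine drugs. It read 239, 218 and 261 CPM across the controls and 159, 189 and 146 CPM across the knockdown libraries. The highest knockdown library, replicate 2, stayed below the lowest control, replicate 2 (log2 fold change -0.54 with an SE of 0.118, edgeR adjusted p = 0.0719). That is 68.7% of control (95% interval 57.5% to 82.3%). TYMS was called by DESeq2 (adjusted p = 0.000949), after the length and GC correction (edgeR adjusted p = 0.0171) and without control replicate 2 (0.034). Its exons overlap ENOSF1 and TYMSOS on the opposite strand.

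RRM1, the large subunit of ribonucleotide reductase, was at 96.3, 76.7 and 88.5 CPM across the controls and 61.7, 71.6 and 71.7 CPM across the knockdown libraries, with no overlap (log2 fold change -0.35 with an SE of 0.114, edgeR adjusted p = 0.181). UNG, the glycosylase that removes uracil from DNA, was at 73, 84.9 and 72 CPM and 59.8, 65.4 and 55.9 CPM, also apart (log2 fold change -0.34 with an SE of 0.109, edgeR adjusted p = 0.171). RRM2, the small and cell cycle regulated subunit of the reductase, and TK1, the salvage kinase for thymidine, had log2 fold changes of -0.31 and -0.17 (edgeR adjusted p of 0.209 and 0.522). Only TK1 overlapped between groups, and its log2 fold change was -0.09 without control replicate 2. Among the RNAs of this role the levels per length in controls were 144 ± 13.1 CPM per kilobase for TYMS, 80.8 ± 8.40 for TK1, 48.1 ± 2.93 for RRM2, 37 ± 3.45 for UNG and 28.3 ± 3.22 for RRM1.

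All 3 genes that couple replication to chromatin were lower, with groups apart in each and none called. UHRF1, which recruits the maintenance methyltransferase DNMT1 to hemimethylated DNA, had controls close together, at 42.5, 43.7 and 43.7 CPM, and was at 35.9, 33.8 and 32.5 CPM across the knockdown libraries (log2 fold change -0.35 with an SE of 0.101, edgeR adjusted p = 0.147). CHAF1A and CHAF1B encode subunits of CAF-1, which deposits histones behind the fork. CHAF1A was at 75.8, 84.9 and 71.1 CPM and 55.6, 69.1 and 58.1 CPM, with knockdown replicate 2 just under the lowest control (log2 fold change -0.34 with an SE of 0.117, edgeR adjusted p = 0.2). CHAF1B was at 16.8, 17.8 and 16.5 CPM and 12.4, 14.7 and 12.1 CPM (log2 fold change -0.38 with an SE of 0.134, edgeR adjusted p = 0.209). DNMT1, the partner of UHRF1 and not a member, was at -0.21 in log2 fold change (edgeR adjusted p = 0.393).

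Per length, the order of the members in controls ran from TYMS (144 ± 13.1 CPM per kilobase, SD, n = 3), PCNA (107 ± 5.12) and MCM7 (106 ± 12.7) down to POLE2 (2.82 ± 0.887), CCNE2 (2.79 ± 0.672) and E2F2 (2.26 ± 0.596). PCNA and MCM7 did not differ beyond their spread, nor did the 3 lowest. Exons of TYMS, MCM7 and CCNE2 overlap other genes on the opposite strand, and how such reads were counted is not known. In the knockdown libraries TYMS was at 99 ± 13.2 CPM per kilobase, PCNA at 90.1 ± 9.42 and MCM7 at 89 ± 5.56, and these 3 lay within their spread of each other.

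**Figure D5:**
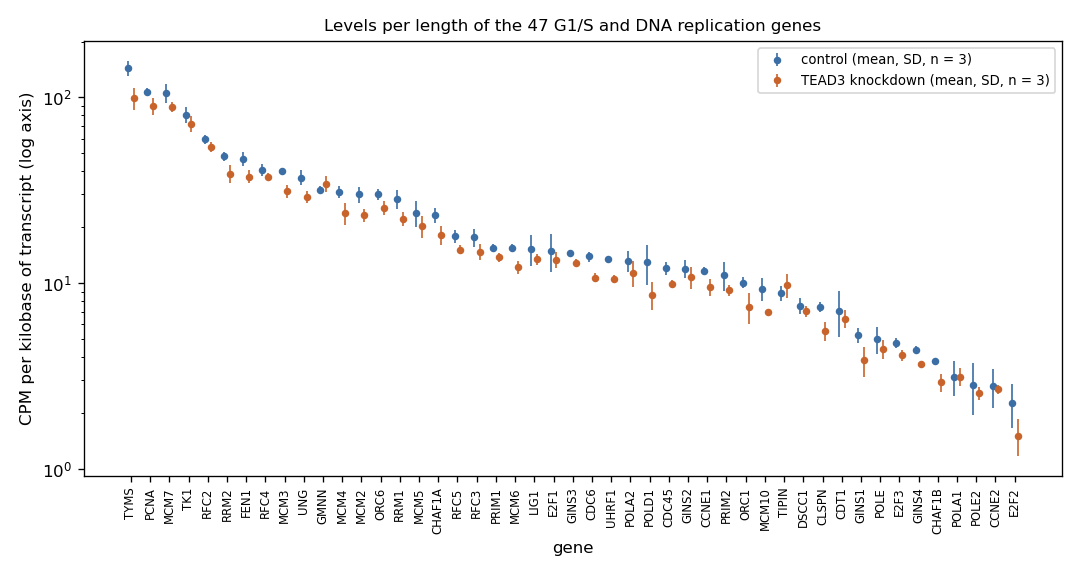
CPM per kilobase of the main annotated transcript for the 47 genes on a log axis, ordered by the control mean; points are means and bars SD over 3 libraries of a group. The range runs from TYMS (144 in controls) to E2F2 (2.26), and the knockdown mean is below the control mean for nearly every gene.

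The exons of 20 members overlap those of another gene, 15 on the opposite strand and 7 on the same strand, and no source used here says how the authors' counting treated such reads. The other 27 had a median log2 fold change of -0.26, with 26 below 0 (50.2% of all genes) and groups apart and lower in 16 (10.6% of all genes).

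In a list of 62 other genes of G1/S control and replication, 46 were below 0 (50.2% of all genes), with a median log2 fold change of -0.16. None was called by edgeR. At an edgeR unadjusted p under 0.05, 15 were lower and 1 was higher (7.43% and 8.15% of all genes). The calls of DESeq2 were 6 lower and 1 higher (2.17% and 2.75% of all genes). In 14 the groups were apart and lower (10.6% of all genes), and in 3 apart and higher (1952 of all 17723 genes). Groups were apart in either direction in 17, against 21.6% of all genes. RPA1, the large subunit of the single-strand binding protein RPA, had the smallest p of the list: it was at 191, 185 and 179.7 CPM across the controls and 135, 148 and 127 CPM across the knockdown libraries (log2 fold change -0.44 with an SE of 0.0956, edgeR adjusted p = 0.0728). The other RPA subunit genes, RPA2 and RPA3, had log2 fold changes of -0.02 and 0.20. CCNA2 (cyclin A2), ASF1B (a histone chaperone), TFDP1 (the dimerisation partner of E2F proteins) and TIMELESS (partner of TIPIN) had log2 fold changes of -0.46, -0.47, -0.36 and -0.41, with edgeR adjusted p of 0.106, 0.109, 0.127 and 0.136. POLE4, a small subunit of polymerase epsilon, was the 1 higher at an unadjusted p under 0.05. It was at 8.44, 9.15 and 10.2 CPM and 19.97, 11.7 and 16.4 CPM (log2 fold change 0.79 with an SE of 0.192, edgeR adjusted p = 0.0995), and the POLE4 log2 fold change was called without knockdown replicate 2 (0.98, edgeR adjusted p = 0.0493, where 0.287% of all genes were called higher).

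Genes of later cell cycle phases were also mostly below 0. Of 28 G2/M and mitotic genes 27 were below 0 (50.2% of all genes), with a median log2 fold change of -0.29. At an edgeR unadjusted p under 0.05, 16 were lower (7.43% of all genes). Groups were apart and lower in 11 (10.6% of all genes), and edgeR called none. The smallest p belonged to TOP2A (-0.43), TPX2 (-0.38) and KIF20A (-0.41), with edgeR adjusted p of 0.115, 0.12 and 0.13. Whether the replication genes and these genes differed from each other was not tested. A short list of replication-dependent histone genes, whose synthesis is tied to S phase, was drawn up with its values known. Of the 6 tested, edgeR called 4 higher, from H2AC6 (1.903, edgeR adjusted p = 0.000181) to H1-2 (1.38, 0.00129). H2BC21 and H2BC12, at -0.15 and 0.23, were not called. Of all genes 0.451% were called higher, but the count in this list describes the choice. Most mRNA of such histone genes lacks a poly(A) tail, and oligo(dT) capture was used. SLBP, which binds the histone stem-loop, and NPAT, which activates histone genes, had log2 fold changes of -0.21 and 0.23 (edgeR adjusted p of 0.437 and 0.576).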

How the data were processed

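Whole-number counts per gene, not scaled for library size, were deposited by the authors. The genome build was GRCh38, and HISAT2 2.0.4, cutadapt 1.9, edgeR, DESeq2 and StringTie 1.3.4d are named, per the submitters' processing notes. The counting step and its strand setting were not given in the sources used here. Counts were analysed in R 4.3.3 with edgeR 4.0.16: TMM, filterByExpr (minimum count 10), and the two-sided quasi-likelihood test on all 17723 genes passing, group as the only term, Benjamini-Hochberg adjustment over all genes, called under 0.05. Intervals are 95%. Symbols, coordinates and transcript lengths came from gene name tables and GENCODE 29. Levels per length used the principal basic transcript. The procedure was tested on simulated counts. It recovered 49.3% of genes changed 1.5-fold and 89.6% of those changed 2-fold, and 14 of its 173 calls were false. Changes smaller than 1.5-fold were not simulated. The 47 members and the lists were chosen with earlier results of these data known. Values in every library are given for any member called and, per role, for the 3 with the smallest p and the most abundant; other members were added after their values were seen. Of other replication genes the 6 with the smallest p are named. Alternatives covered scaling, filters, DESeq2 1.42.0, limma-voom (limma 3.58.1), a block for replicate number, each library left out in turn, a stricter threshold, a loess correction for length and GC (span 0.3), and a covariate of non-polyadenylated RNA.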

Additional observations from a re-analysis of the deposited data

How the results depend on the processing

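The members' median log2 fold change stayed negative in all 16 alternative fits, between -0.31 and -0.22, and both ends came from leaving out a library. The count of members called lower, 0 with edgeR, was 10 with DESeq2, 8 with the length and GC correction and 0 to 4 when a library was left out, the 4 without control replicate 2. For the 62 other replication genes the count lower, 0 with edgeR, was 6, 7 and 0 to 5 in the same fits, and the count higher was 1 with DESeq2 and 0 to 1 when a library was left out. The cause was not tested. The TEAD3 log2 fold change was not called with no filter on low counts (-1.56), with the non-polyadenylated RNA covariate (-1.43) or at an adjusted p under 0.01 (-1.55), and ranged from -1.80 to -1.37 when a library was left out. Of the members, 39 were below 0 and 1 (TIPIN) above 0 in all 16 fits, and 7 changed sign in at least 1. The POLA1 log2 fold change (-0.00025) was at 0.0018 with DESeq2 size factors, 0.0092 with upper-quartile scaling, 0.0036 with the stricter filter, 0.0017 with DESeq2, 0.011 with limma-voom, 0.018 with the replicate block, 0.064 with the length and GC correction, 0.026 with the covariate, and -0.17 to 0.12 when a library was left out. GMNN was at -0.063 with the length and GC correction. With the covariate CCNE2, POLE2 and DSCC1 were at 0.012, 0.12 and 0.011. When a library was left out, E2F1 ranged from -0.25 to 0.042, CCNE2 from -0.20 to 0.15, CDT1 from -0.30 to 0.10 and POLE2 from -0.39 to 0.030. The replicate number did not pair the samples: deviations of same-numbered libraries correlated at 0.0056, -0.017 and 0.0083, and with the replicate block 0 members were called and the median was -0.26, with 16 genes called lower and 47 higher in all. Precision was lowest for the least abundant member, POLE2, at 5.01 CPM in controls, with an SE of 0.249 against a median of 0.119 over the members.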
